A study of Homo sapiens with 6 samples.

Results

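The genes of the mitochondrial ribosome and of the machinery that copies, transcribes and processes mitochondrial DNA and RNA were read out in 6j treated and non-treated MHCC-97H cells. They were taken by symbol from the table of gene counts, as every gene whose symbol starts with MRPL or MRPS together with TFAM, TFB1M, TFB2M, POLRMT, LRPPRC, SLIRP, MTPAP, PNPT1, FASTKD2, FASTKD4, ELAC2, TEFM, TWNK, POLG and POLG2. The rule found 92 genes of the 25445 rows, with 49 MRPL genes, 29 MRPS genes and 14 of the 15 genes given by name. FASTKD4 is not a symbol of the table, and RefSeq lists it as a synonym of TBRG4, whose values are given below with the RNA processing genes. All 92 are protein coding in GENCODE release 29. Because the proteins of MRPS30 and MRPS18A sit in the large subunit despite their names, 51 genes were counted as large subunit, 27 as small subunit and 14 as transcription, replication and RNA machinery.

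MHCC-97H is an established human hepatocellular carcinoma cell line, so the data come from cells of a single line. Cells received compound 6j at 10 μM for 16 h, and the non-treated cells received the solvent for the same time. There were 3 libraries of each, numbered as replicates 1 to 3. The labels do not say whether replicates were separate cultures, and p-values therefore measure the spread between these libraries, which may be technical. Levels are given as CPM, each gene's count scaled to the normalized size of its library. As whole cultures were sequenced, fewer cells of a kind and less RNA per cell cannot be told apart.

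Mitochondria keep a small genome of their own. It encodes subunits of the respiratory chain and ATP synthase, along with the ribosomal and transfer RNAs needed to translate them. Every protein of the mitochondrial ribosome is encoded in the nucleus, made in the cytosol and imported. POLRMT transcribes the genome as long precursors with the help of TFAM and TFB2M, enzymes such as ELAC2 cut the precursors at the transfer RNAs, and LRPPRC with SLIRP stabilizes the mRNAs. In hepatocytes and liver cancer cells, as in most tissues, oxidative phosphorylation depends on this supply of translated subunits.

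The total count per library ranged from 31533403 to 37919879 in non-treated cells and from 35002336 to 38018349 in 6j treated cells. A gene of the 92 had between 381 and 9571 counts in any library, so all passed the filter on low counts. Of 10 markers of hepatocytes and liver cancer cells, 7 were never above 1 CPM, among them ALB, AFP and TTR, whereas the keratins KRT8 (369 to 653 CPM) and KRT18 (320 to 456 CPM) were abundant. The summed level of this list was 905 to 1110 CPM in non-treated and 706 to 825 CPM in 6j treated cells. Of 12 markers of other cell types, 10 were never above 1 CPM, PTPRC had no count, and CDH5 was at 1.41 to 5.93 CPM. Their summed level, mostly COL1A1, was 218 to 281 CPM in non-treated and 207 to 278 CPM in 6j treated cells. The part of these markers in the results below was not tested.

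Nearly all of these genes were lower in 6j treated cells, by a modest amount. The log2 fold change, 6j treated over non-treated, was below 0 for 88 of the 92 genes, with a median of −0.24 (quartiles −0.36 and −0.14), while the median over all 15957 rows tested was 0.00 and 49.3% of them were below 0. With edgeR's quasi-likelihood test at an adjusted p-value under 0.05 over all rows, 21 genes (22.8%) were lower and 0 were higher. Over all rows tested, 4.37% passed as lower and 4.79% as higher. At an unadjusted p under 0.05, 50 of the 92 genes passed, against 4175 of all 15957 rows tested. Differentially expressed genes (DEGs), which also changed more than 1.5-fold, numbered 7 (7.61%) and were all lower, against 1.12% of all rows lower and 2.48% higher. The 7 were MRPL12, MRPL24, MRPL4, MRPS12, ELAC2, MRPL41 and MRPL16.

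The summed level of the 92 genes was 5857, 5644 and 5644 CPM in the non-treated libraries and 4995, 4817 and 4622 CPM in the 6j libraries, so the groups did not overlap. It went from 5715 ± 123 to 4811 ± 187 CPM (SD, n = 3 each), a change of −15.8%. The change was −16.5% for the large subunit, −13.9% for the small subunit and −16.8% for the other 14 genes. For 54 genes (58.7%) the 3 libraries of 6j treated cells lay below the 3 libraries of non-treated cells, against 15.8% of all rows, and for 0 genes they lay above, against 16.0% of all rows. Between libraries of the same replicate number, 71 genes (77.2%) were lower in 6j at all 3 numbers, against 28.7% of all rows.

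**Figure D1:**
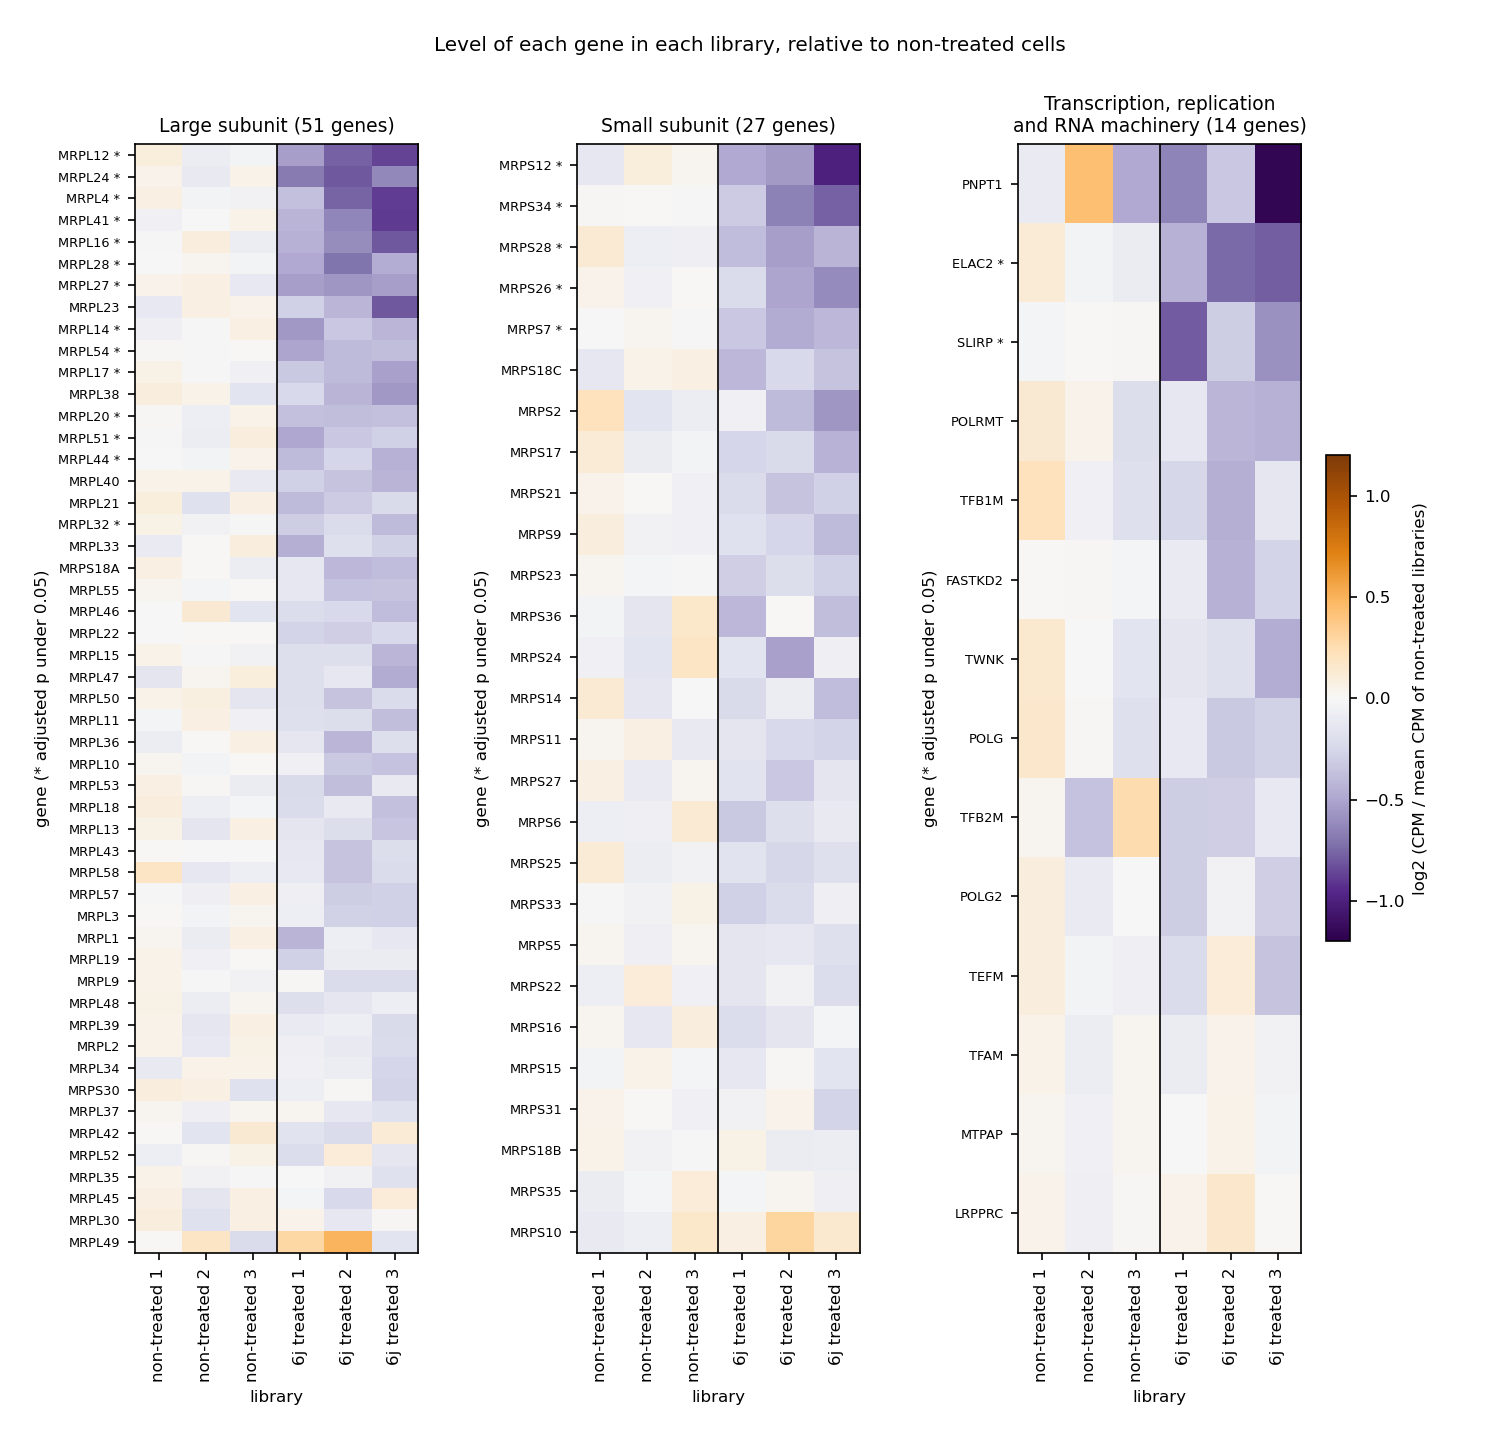
Level of each of the 92 genes in each library (columns) as log2 of its CPM over the mean CPM of the 3 non-treated libraries, by subunit and ordered by fold change, with stars for genes with an adjusted p under 0.05. The 6j columns are violet for most genes of both subunits. MRPL49, MRPS10, LRPPRC and MTPAP at the bottom of the panels have log2 fold changes that are not below 0, although single 6j libraries can be.

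Deviations from the group means correlated at 0.171 to 0.312 between libraries of the same replicate number. A fit with that number as a block called more genes, but the labels do not say that the libraries were paired. It found 51 of the 92 lower, against 13.9% of all rows, and 1 higher, MRPL49, against 13.1%. All 21 genes of the fit without the block were among the 51. DEGs under the block were 8, all lower, against 2.46% of all rows lower and 4.01% higher, and PNPT1 was added to the 7. DESeq2 called 25 lower and 0 higher, against 8.41% and 8.57% of the rows it gave an adjusted p, and 7 DEGs, all lower, against 1.79% lower and 3.76% higher. The count moved with single libraries, for all rows as for these genes. Without non-treated replicate 1, 2 of the 92 were lower, against 0.386% of all rows, and without 6j replicate 2 there were 3, against 0.399%. Leaving out non-treated replicate 2 gave 8, against 1.58%, and leaving out non-treated replicate 3 gave 9, against 1.59%. There were 14 without 6j replicate 3, against 3.08%, and 20 without 6j replicate 1, against 4.80%. In these fits 86 to 89 of the 92 genes were below 0, and their median stayed between −0.28 and −0.22.

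**Figure D2:**
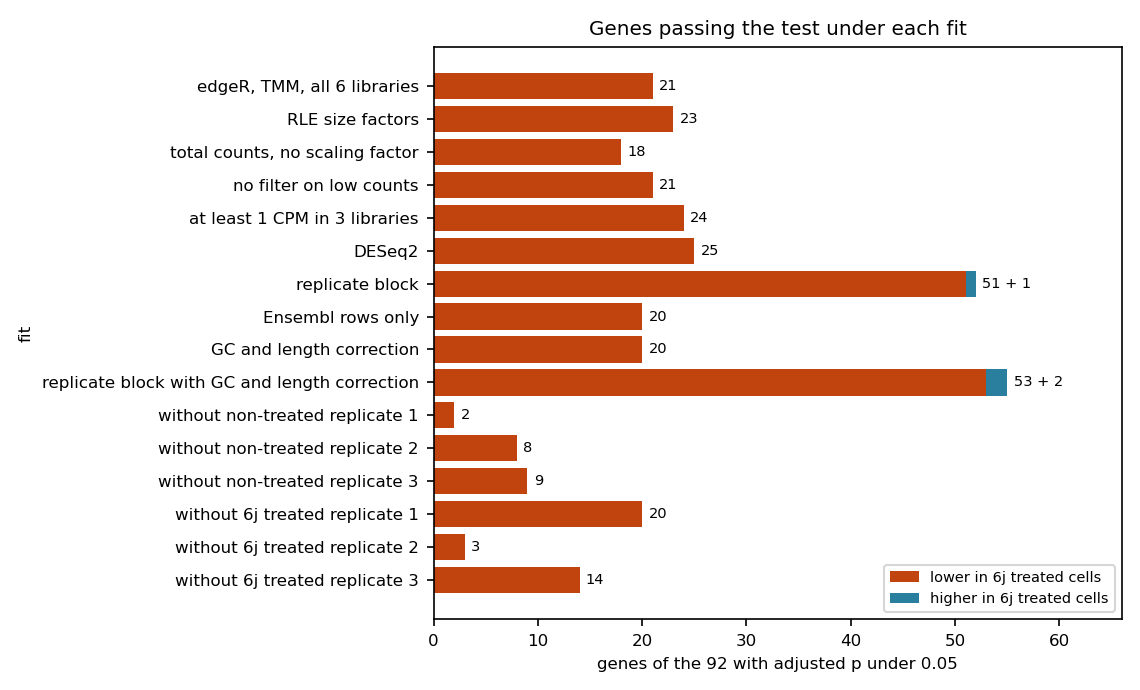
Number of the 92 genes with an adjusted p under 0.05 (horizontal axis) under each fit, lower and higher in 6j treated cells. The block by replicate number gives 51 lower and 1 higher, and the fits without 1 library give 2 to 20 lower.

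The genes of the large subunit, which holds the peptidyl transferase centre, were lower in 50 of 51 cases. Their median log2 fold change was −0.25, and 14 passed the test, 5 of them as DEGs, with 29 lower and 1 higher under the block. MRPL12 forms the stalk that recruits translation factors and is also known to bind POLRMT. It lies on chromosome 17 from 81703357 to 81707526 (GRCh38). Its levels were 97.0, 85.7 and 88.3 CPM in non-treated and 62.5, 53.0 and 49.6 CPM in 6j treated libraries, and the groups were clearly apart. The mean went from 90.3 ± 5.89 to 55.0 ± 6.66 CPM (SD, n = 3 each), with edgeR's log2 fold change at −0.71 ± 0.10 (SE) and its adjusted p = 0.00734. MRPL12 shares 68.2% of its exon bases on the same strand with AC139530.2, which had 0 counts in every library.

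MRPL24 (chromosome 1, 156737303 to 156741590) is a protein of the large subunit with a bacterial counterpart. It had 122, 110 and 123 CPM in non-treated and 73.8, 68.1 and 76.9 CPM in 6j treated libraries. In edgeR this gave −0.70 ± 0.08 (SE) on the log2 scale, adjusted p = 0.00386, the smallest adjusted p of the 92 genes. MRPL12 and MRPL24 were the 2 genes called in each of the 6 fits that left out a library. MRPL10, the protein on which the MRPL12 stalk is anchored, had a log2 fold change of −0.24 that did not pass (adjusted p = 0.171 from edgeR) but passed with the block (adjusted p = 0.041). The log2 ratio of MRPL12 to MRPL10 CPM was 0.90 ± 0.07 in non-treated and 0.43 ± 0.03 in 6j treated libraries (SD, n = 3 each), with no overlap. MRPL12 was picked for its fall, so this ratio is a description and was not tested.

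MRPL4 (chromosome 19, 10251901 to 10260045), a protein that binds the large ribosomal RNA, had 81.0, 75.3 and 74.9 CPM without and 59.5, 45.3 and 41.7 CPM with 6j. The difference on the log2 scale was −0.66 ± 0.13 (SE), with adjusted p = 0.0181 by edgeR, and it did not pass without non-treated replicate 1 (adjusted p = 0.0866) or 6j replicate 2 (adjusted p = 0.0995). MRPL41 (chromosome 9, 137551199 to 137552555), which has no bacterial counterpart, had 33.3, 34.4 and 35.8 CPM without and 25.7, 22.3 and 18.6 CPM with 6j. Testing in edgeR put it at −0.63 ± 0.13 (SE) on the log2 scale, adjusted p = 0.0188, and it passed in 2 of the 6 fits without a library. MRPL16 (chromosome 11, 59806135 to 59810872), which lies near the site where transfer RNA is accommodated, had 61.1, 65.3 and 58.3 CPM without and 45.3, 40.4 and 35.3 CPM with 6j. In edgeR this gave −0.61 ± 0.11 (SE) on the log2 scale, adjusted p = 0.0119, and it passed in 4 of those 6 fits. In all 3 genes the 6j libraries lay below every non-treated library, with 6j replicate 3 the lowest.

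The other 9 large subunit genes that passed changed less than 1.5-fold. MRPL28 (log2 fold change −0.55, adjusted p = 0.0113 from edgeR) and MRPL27 (−0.54, adjusted p = 0.0117), which has its bacterial counterpart at the peptidyl transferase centre, were the next in size. MRPL27 had 39.8, 40.4 and 35.6 CPM in non-treated and 26.7, 26.1 and 26.8 CPM in 6j treated libraries, so its 6j libraries differed little from each other. MRPL14, MRPL54, MRPL17, MRPL20, MRPL51, MRPL44 and MRPL32 followed, with log2 fold changes from −0.44 to −0.31 and adjusted p-values from 0.022 to 0.0494 (edgeR). Of these 7, MRPL54, MRPL44 and MRPL32 passed in 0 of the 6 fits without a library. MRPL51 shares 31.3% of its exon bases with NCAPD2 on the opposite strand. Without a stated strand setting the reads of the pair cannot be told apart.

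The highest log2 fold change was that of MRPL49, which had 77.1, 87.3 and 65.7 CPM in non-treated and 93.6, 108 and 68.8 CPM in 6j treated libraries. The groups overlapped, and edgeR gave 0.23 ± 0.17 (SE) on the log2 scale, adjusted p = 0.442. At each replicate number the 6j library was above its non-treated counterpart, and the gene passed with the block (adjusted p = 0.0298). MRPL49 shares 12.2% of its exon bases on the opposite strand with FAU, which was lower (log2 fold change −0.27), and SYVN1 (0.35). MRPL42, MRPL52, MRPL35, MRPL45 and MRPL30 had log2 fold changes between −0.08 and −0.02 and none passed with or without the block.

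In the small subunit, which reads the mRNA, 26 of 27 genes were lower. The median log2 fold change was −0.23, 5 genes passed the test and 15 passed with the block, each of them lower. MRPS12 (chromosome 19, 38930548 to 38933162) belongs to the decoding centre and was the DEG of this subunit. It had 37.0, 43.3 and 41.0 CPM in non-treated and 28.9, 27.7 and 20.3 CPM in 6j treated libraries. The difference on the log2 scale was −0.66 ± 0.14 (SE), with adjusted p = 0.0233 by edgeR, and it passed in 2 of the 6 fits without a library. MRPS12 shares 16.3% of its exon bases on the opposite strand with SARS2, the mitochondrial seryl-tRNA synthetase gene, which had a log2 fold change of −0.48.

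MRPS34 (chromosome 16, 1771890 to 1773155), a protein particular to mitochondrial ribosomes, had 94.0, 93.5 and 92.1 CPM without and 74.9, 59.2 and 54.4 CPM with 6j. The non-treated libraries were nearly equal and the spread lay within the 6j libraries. Testing in edgeR put it at −0.57 ± 0.12 (SE) on the log2 scale, adjusted p = 0.0198, and it passed in 2 of the 6 fits without a library. MRPS7 (−0.40, adjusted p = 0.0172), which binds the small ribosomal RNA, MRPS28 (−0.45, adjusted p = 0.021) and MRPS26 (−0.43, adjusted p = 0.042) also passed in edgeR. MRPS28 shares 35.8% of its exon bases with AC036214.3, which was at most 1.96 CPM in any library. MRPS10 was the only small subunit gene above 0, with 58.4, 60.0 and 70.5 CPM without and 66.2, 77.8 and 69.8 CPM with 6j (log2 fold change 0.18, adjusted p = 0.307 from edgeR). The groups overlapped, as they did for MRPS35 (−0.02) and MRPS18B (−0.04). MRPS31 and MRPS15, which had the next highest log2 fold changes of the subunit, did not pass with or without the block.

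Levels differed far more between genes of a subunit than between the groups. Per kilobase of exon, non-treated levels ran from 4.80 to 87.9 CPM in the large subunit (median 20.2) and from 3.10 to 85.0 CPM in the small subunit (median 19.8). MRPL12 (87.9) and MRPL15 (84.5) were the highest and MRPL46 (4.80) and MRPL42 (4.99) the lowest of the large subunit. MRPS34 (85.0) and MRPS18B (75.6) were the highest and MRPS33 (3.10) and MRPS6 (4.92) the lowest of the small subunit. With 6j, the level per kilobase was 53.5 CPM for MRPL12 and 70.4 CPM for MRPL15, so MRPL15 was then the higher, and it was 57.3 CPM for MRPS34 and 73.7 CPM for MRPS18B, which was then the higher. The exon length used was that of all annotated exons together, which exceeds the length of any single transcript.

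**Figure D3:**
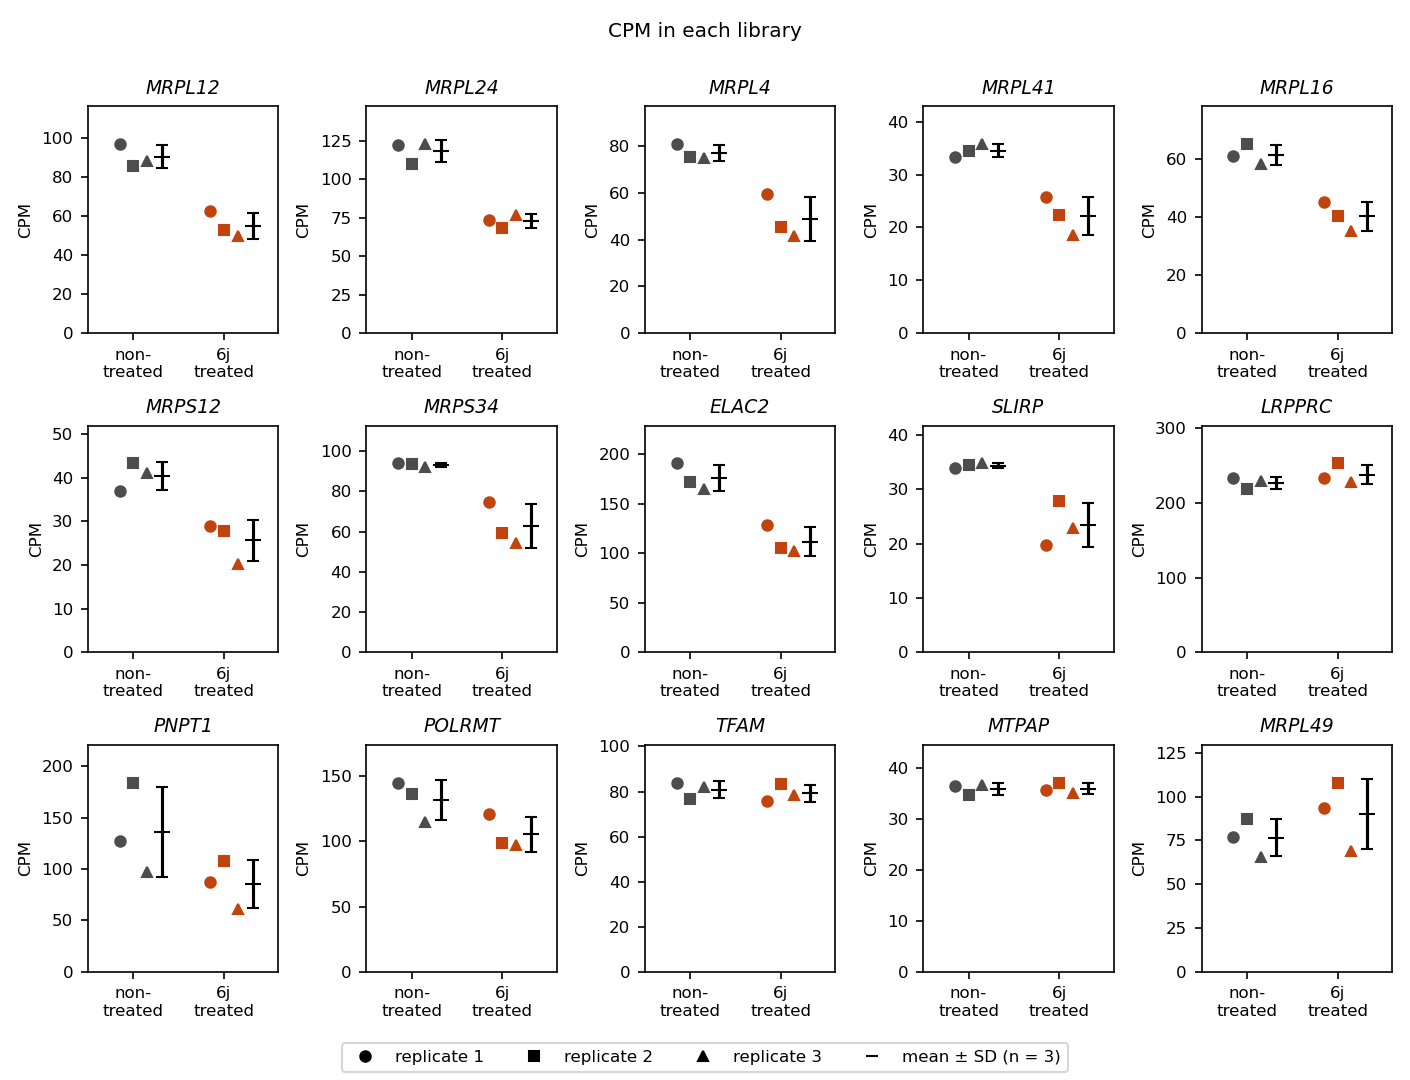
CPM of 15 genes (vertical axes, each from 0) in the libraries of non-treated and 6j treated cells, with points by replicate number and bars for the mean ± SD (n = 3). The 2 groups are apart for MRPL12, MRPL24, MRPL4, MRPL41, MRPL16, MRPS12, MRPS34, ELAC2 and SLIRP, and overlap for the other 6 genes.

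Of the 14 genes of transcription, replication and RNA processing, 12 were lower, with a median log2 fold change of −0.25. The 2 that passed, ELAC2 and SLIRP, act on RNA. With the block 7 passed, each of them lower. ELAC2 (chromosome 17, 12992391 to 13018187) encodes the ribonuclease Z that trims the 3′ ends of transfer RNA precursors in mitochondria and in the nucleus. It had 191, 172 and 165 CPM in non-treated and 129, 105 and 102 CPM in 6j treated libraries, which lay well below. In edgeR this gave −0.65 ± 0.11 (SE) on the log2 scale, adjusted p = 0.0113, and it passed in 4 of the 6 fits without a library.

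SLIRP (chromosome 14, 77708071 to 77761104) had 33.9, 34.4 and 34.8 CPM without and 19.8, 27.8 and 22.9 CPM with 6j. The difference on the log2 scale was −0.55 ± 0.13 (SE), with adjusted p = 0.0317 by edgeR, and it passed in 1 of the 6 fits without a library. Its partner LRPPRC had 234, 218 and 229 CPM without and 233, 253 and 228 CPM with 6j, and its groups overlapped (log2 fold change 0.07 ± 0.08 SE, edgeR adjusted p = 0.644). The log2 ratio of SLIRP to LRPPRC CPM was −2.72 ± 0.06 in non-treated and −3.35 ± 0.19 in 6j treated libraries (SD, n = 3 each), with no overlap. This ratio is a description and was not tested.

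PNPT1, the polynucleotide phosphorylase that degrades mitochondrial RNA, had 127, 184 and 97.6 CPM in non-treated and 87.4, 108 and 61.1 CPM in 6j treated libraries. Its level followed the replicate number in both groups, so that the groups overlapped although the 6j library was the lower at each number. The log2 fold change of −0.67 (standard error 0.30) did not pass (adjusted p = 0.235 from edgeR), whereas with the block it did (adjusted p = 5.42e-05). POLRMT, the mitochondrial RNA polymerase, had 145, 136 and 115 CPM without and 121, 98.6 and 97.1 CPM with 6j. Its log2 fold change was −0.32 (adjusted p = 0.12 from edgeR, and 0.00484 with the block).

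The groups overlapped or did not pass for the remaining genes. TFAM, which packages mitochondrial DNA and starts its transcription, had 83.9, 76.7 and 81.9 CPM without and 76.0, 83.4 and 78.5 CPM with 6j, with edgeR's log2 fold change at −0.03 ± 0.08 (SE) and its adjusted p = 0.868. MTPAP, which adds the poly(A) tails of mitochondrial mRNAs, had 36.0 ± 1.15 CPM and 36.0 ± 1.04 CPM (SD, n = 3 each). The transcription factors TFB2M (log2 fold change −0.23) and TEFM (−0.14) and the ribosomal RNA methyltransferase TFB1M (−0.28) did not pass with or without the block. FASTKD2 (−0.26), which is needed for the large ribosomal RNA, the replicative helicase TWNK (−0.25) and the DNA polymerase subunit POLG (−0.24) passed with the block alone (adjusted p = 0.0371, 0.0242 and 0.0264 from edgeR). The accessory subunit POLG2 (−0.21) passed in neither (adjusted p = 0.307 and 0.19 from edgeR).

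The 13 protein coding genes of mitochondrial DNA, the templates that these proteins transcribe and translate, were measured in the same libraries. Of their transcripts 12 of 13 were below 0, with a median log2 fold change of −0.52. The difference from the nuclear genes was not tested. Their summed level went from 43889 ± 5410 to 31492 ± 4836 CPM (SD, n = 3 each), a change of −28.2%. The non-treated libraries had 44184, 38337 and 49145 CPM and the 6j libraries 34245, 25907 and 34323 CPM, so the groups did not overlap. The test was passed by 3, all lower, MT-ND3, MT-CO1 and MT-CO3, and by 12 with the block. MT-ND3, a subunit of complex I, had 351, 296 and 407 CPM without and 221, 211 and 217 CPM with 6j (log2 fold change −0.70 ± 0.11 SE, edgeR adjusted p = 0.0107). MT-CO1, the catalytic subunit of complex IV, had 12219, 10994 and 12794 CPM without and 8929, 6838 and 8826 CPM with 6j (log2 fold change −0.55 ± 0.14 SE, edgeR adjusted p = 0.0374). When either non-treated replicate 1 or 6j replicate 2 was left out, 0 of the 13 passed, and DESeq2 called 10.

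MT-ND1 was the 1 gene of the 13 not below 0. It had 838, 891 and 884 CPM in non-treated and 877, 943 and 969 CPM in 6j treated libraries, and the groups overlapped. Testing in edgeR put it at 0.09 ± 0.08 (SE) on the log2 scale, adjusted p = 0.537. The log2 ratio of MT-ND1 to MT-CO1 CPM was −3.78 ± 0.14 in non-treated and −3.13 ± 0.25 in 6j treated libraries (SD, n = 3 each), and these did not overlap. The ratio to MT-ND3 (1.32 ± 0.24 and 2.1 ± 0.1) did not overlap either. That to MT-ND2 (−1.07 ± 0.21 and −0.68 ± 0.27) did overlap. MT-ND1 was picked as the gene not below 0 and MT-CO1 and MT-ND3 for their small p, so these ratios partly restate that choice. They were not tested. MT-ND6, which is read from the other strand, had the largest SD relative to its mean of the 13, with 718, 645 and 1197 CPM without and 501, 384 and 818 CPM with 6j. It passed with the block (adjusted p = 4.57e-05) and not without (0.4). The libraries were made from RNA selected by its poly(A) tail, the strand setting of the counting is not given in the sources used here, and MT-ATP8 with MT-ATP6 and MT-ND4L with MT-ND4 share an mRNA, so that single values of these genes are uncertain.

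**Figure D4:**
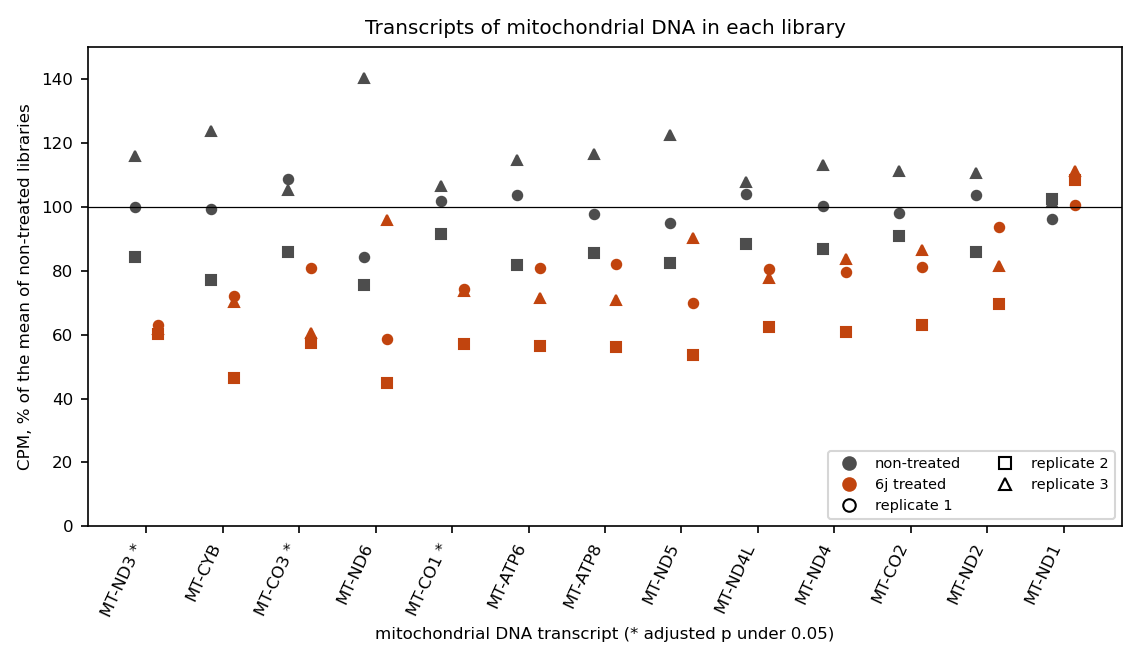
CPM of the 13 mitochondrial DNA transcripts in each library as percent of the mean of the non-treated libraries, with shapes for replicate numbers and stars for genes with an adjusted p under 0.05. The 6j points lie below those of the same replicate number for 12 genes, and MT-ND1 is the exception.

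Other genes of mitochondrial gene expression and 12 nuclear regulators, taken from lists outside the rule, numbered 83 together, of which 2 are also among the 92. The test called 14 lower and 4 higher, against 4.37% and 4.79% of all rows, and the block called 29 lower and 6 higher, against 13.9% and 13.1%. Nuclear regulators, described further below, made up 3 of the 4 higher and, with the block, 3 of the 6. Without 6j replicate 2 these were 0 lower and 2 higher, and without non-treated replicate 1 they were 1 and 2. Mitochondrial ribosomal proteins that carry other names were lower in 5 of 5 cases, and 3 passed, or 4 with the block. GADD45GIP1 had 60.6, 69.3 and 78.8 CPM without and 47.9, 44.3 and 40.6 CPM with 6j (log2 fold change −0.65, adjusted p = 0.0119 from edgeR), and AURKAIP1 (−0.52) and CHCHD1 (−0.46) also passed. Of 22 ribosome assembly genes, which include FASTKD2 and TFB1M, 2 passed as lower and 1 as higher, and with the block 10 and 1. MRM1 (−0.76, adjusted p = 0.0363) and MRM3 (−0.44, adjusted p = 0.0452), which methylate the large ribosomal RNA, were lower in edgeR, and NSUN4, which modifies the small ribosomal RNA and acts in joining the subunits, was higher. NSUN4 had 40.8, 39.9 and 36.9 CPM without and 49.2, 55.7 and 49.6 CPM with 6j (log2 fold change 0.39, adjusted p = 0.031 from edgeR). NSUN4 passed in 2 of the 6 fits without a library, and MRM1 and MRM3 passed in 1 each.

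Of 14 translation factors, 2 passed as lower, the elongation factor TUFM with 269, 241 and 265 CPM without and 209, 172 and 170 CPM with 6j (log2 fold change −0.49, adjusted p = 0.0195 from edgeR), and its exchange factor TSFM (−0.49, adjusted p = 0.0204). GUF1 had a log2 fold change of 0.34 and did not pass (adjusted p = 0.112 from edgeR), but passed as higher with the block (adjusted p = 0.0339). With the block 3 translation factors were lower and 1 higher. Of 19 RNA processing and decay genes, 5 passed as lower, and with the block 6 were lower and 1 higher. HSD17B10 (−0.49) and TRMT10C (−0.44) are both subunits of mitochondrial ribonuclease P, which cuts the 5′ ends of transfer RNAs. The catalytic subunit, KIAA0391 (also called PRORP), had 40.8, 45.5 and 58.0 CPM without and 49.3, 42.2 and 18.1 CPM with 6j, and its overlapping groups did not pass (log2 fold change −0.40, adjusted p = 0.595 from edgeR, and 0.656 with the block). FASTKD5 (−0.39) acts in the cutting of mRNA precursors. TBRG4 had 263, 242 and 223 CPM without and 211, 170 and 161 CPM with 6j (−0.43, adjusted p = 0.049 from edgeR), and RPUSD3 had a log2 fold change of −0.40. Of 11 replication and nucleoid genes, SSBP1 (−0.31), the single-strand DNA binding protein, and ATAD3A (−0.40) passed as lower, and 4 did with the block. In the 6 fits without a library SSBP1 passed in 0, and ATAD3A and TBRG4 passed in 1 each.

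Of 12 nuclear regulators, 3 passed as higher and 0 as lower, and with the block 3 were higher and 2 lower. The 2 were MYC (log2 fold change −0.26, block adjusted p = 0.00532 from edgeR) and PPRC1 (−0.22, block adjusted p = 0.0171). PPARGC1A, the coactivator of mitochondrial biogenesis, had 26.0, 31.5 and 22.6 CPM without and 38.7, 62.4 and 42.5 CPM with 6j (log2 fold change 0.84 ± 0.20 SE, edgeR adjusted p = 0.0374). It passed in 2 of the 6 fits without a library. The stress response factors ATF4 (1.10) and DDIT3 (2.27) were the other two. NRF1 (−0.03, adjusted p = 0.909) and GABPA (0.20, adjusted p = 0.37), the factors best known for driving genes of the mitochondrial ribosome, did not pass in edgeR.

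The same fit gave other ribosomal and mitochondrial genes for comparison. Of the 81 cytosolic ribosomal protein genes tested, 76 were below 0, the median log2 fold change was −0.14, and 6 (7.41%) passed, all lower, or 29 (35.8%) with the block. Of the 81 nuclear encoded respiratory chain genes tested, 79 were below 0, with a median of −0.36, and 45 (55.6%) passed, all lower. With the block 66 (81.5%) were lower and 1 higher. The corresponding shares of the 78 ribosomal genes of both subunits were 24.4% lower and, with the block, 56.4%, and all rows had 4.37% and 13.9%. The differences between these groups of genes were not tested.

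**Figure D5:**
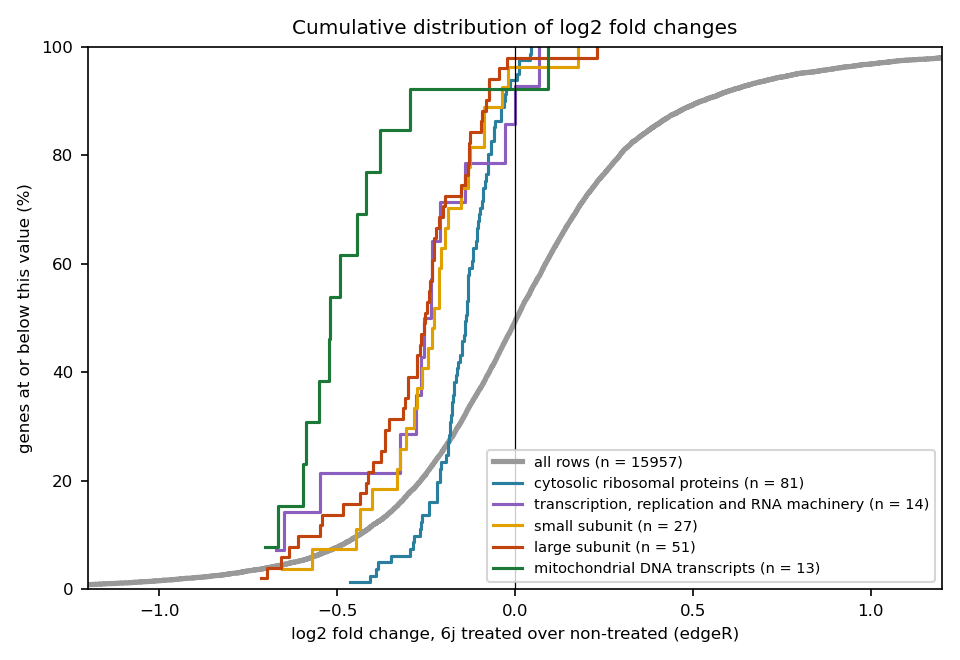
Percent of genes (vertical axis) at or below each log2 fold change (horizontal axis) for the parts of the mitochondrial machinery, the mitochondrial DNA transcripts, the cytosolic ribosomal proteins and all rows tested, with tails of all rows outside −1.2 and 1.2 not drawn. At the median and the quartiles, the curves of both subunits lie left of that of the cytosolic ribosomal proteins and right of that of the mitochondrial DNA transcripts. At the ends the curves cross.

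Genes that passed had a higher median GC content than those that did not. GC content was that of the longest annotated transcript of each gene, whereas exon length was that of all annotated exons together. The median GC content was 54.8% in the 21 genes (37.5% to 72.0%) and 45.5% in the other 71. In the 7 DEGs it was 50.7% to 72.0%. Across the 92 genes the log2 fold change had a Pearson correlation of −0.46 with GC content and of 0.25 with the log2 of exon length. Across all 13359 Ensembl genes tested these values were −0.11 and 0.09. All genes were read from the same 6 libraries, so these are descriptions. With a correction for GC content and length, 20 genes were lower, against 708 of 13359 rows, and 17 of the 21 were among them. Of the 20, only ELAC2 (log2 fold change −0.66) and MRPL24 (−0.62) still changed over 1.5-fold, against 144 of the 13359 rows. MRPL12 was at −0.56 and passed (adjusted p = 0.00864 from edgeR), and MRPS26 did not (adjusted p = 0.0837).

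The promoters of these genes are known for a few short motifs that occur close to the start of transcription. RefSeq promoter windows (GRCh38.p14, 250 bases before to 50 bases after the start) were found for 82 of the 92 genes and searched on both strands. Where a gene had several windows, a motif in any of them counted once for the gene. The motif of ETS factors such as GABPA, CCGGAAG, was in 36 genes (43.9%), against 12.2% of 27305 genes with a window and 21.6% of 10440 tested ones. The YY1 motif AAGATGGCG was in 14 (17.1%, against 2.14% and 4.58%), the NRF1 motif in 3 (3.66%, against 1.52% and 2.58%) and the ZNF143 motif in 2 (2.44%, against 1.15% and 2.38%). The letters of the last 2 motifs are those in capitals in the stretches of MRPL17 and MRPL24 below, with any base allowed at the 8th position of the ZNF143 motif. The ZNF143 motif was added after the promoter of MRPL24 had been seen. At least 1 of the 4 was in 57.3% of the 82 genes. In 8 genes 2 or more kinds were found, and in 0 of them did the kinds share bases. Among genes with windows, the ETS motif was in 11 of the 20 that passed (55.0%) and in 25 of the 62 that did not (40.3%). A match describes the letters of a window and is no evidence of binding.

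The 100 bases before the start are shown for the gene with the largest fall, MRPL12, and for the 9 other genes lower in the test that hold a whole motif there. Where a gene had several windows, the one with the most motif matches in these bases was taken. The start is that of the RefSeq window and can differ from the end of the GENCODE gene. The stretches of MRPL24 and MRPS12 lie within the GENCODE coordinates given above, and some others reach into their gene. The stretches are read 5′ to 3′ on the strand of the gene with motifs in capitals. Capitals mark ETS in MRPS12, MRPS34, SLIRP, MRPL27, MRPS26, MRPL54 and MRPL20, ZNF143 in MRPL24 and NRF1 in MRPL17, with ETS on the opposite strand read as CTTCCGG.
MRPL12 (chr17:81703267-81703366, plus strand): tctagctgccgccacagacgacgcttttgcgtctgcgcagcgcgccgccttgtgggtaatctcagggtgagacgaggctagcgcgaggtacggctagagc
MRPL24 (chr1:156741089-156741188, minus strand): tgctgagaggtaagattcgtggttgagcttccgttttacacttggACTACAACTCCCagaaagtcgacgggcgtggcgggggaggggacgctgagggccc
MRPS12 (chr19:38930854-38930953, plus strand): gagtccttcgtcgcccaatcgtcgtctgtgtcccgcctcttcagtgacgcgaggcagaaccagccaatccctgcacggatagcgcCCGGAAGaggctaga
MRPS34 (chr16:1773135-1773234, minus strand): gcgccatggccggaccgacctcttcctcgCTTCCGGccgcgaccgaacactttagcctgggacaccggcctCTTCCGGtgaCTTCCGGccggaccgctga
SLIRP (chr14:77708003-77708102, plus strand): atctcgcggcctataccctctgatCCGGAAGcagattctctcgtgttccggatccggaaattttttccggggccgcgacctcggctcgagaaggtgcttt
MRPL27 (chr17:50373185-50373284, minus strand): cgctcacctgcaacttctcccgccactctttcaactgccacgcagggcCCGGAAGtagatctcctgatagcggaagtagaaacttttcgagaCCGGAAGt
MRPS26 (chr20:3045952-3046051, plus strand): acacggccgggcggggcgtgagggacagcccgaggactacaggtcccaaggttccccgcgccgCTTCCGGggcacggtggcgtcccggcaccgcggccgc
MRPL54 (chr19:3762582-3762681, plus strand): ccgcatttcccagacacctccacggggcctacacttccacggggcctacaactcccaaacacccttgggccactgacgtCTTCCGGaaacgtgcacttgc
MRPL17 (chr11:6683341-6683440, minus strand): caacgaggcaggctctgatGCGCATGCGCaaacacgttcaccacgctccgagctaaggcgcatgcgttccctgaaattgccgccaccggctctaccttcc
MRPL20 (chr1:1407294-1407393, minus strand): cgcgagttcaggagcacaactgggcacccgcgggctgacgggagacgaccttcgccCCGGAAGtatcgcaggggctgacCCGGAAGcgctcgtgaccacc

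The stretch of MRPS34 holds 3 ETS matches, those of MRPL27 and MRPL20 hold 2 each, those of the other 6 genes with a motif hold 1, and that of MRPL12 holds none of the 4 motifs.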

How the data were processed

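RNA was selected with oligo(dT) beads, sequenced and counted on genes. The authors deposited a table of raw counts, in whole numbers and without normalization, with a column for each of the 6 libraries. The submitters' notes name HISAT2, StringTie and GRCh38, and the counting program, annotation and strand setting are not given in the sources used here. How reads that match several places, such as processed pseudogenes, were counted is likewise not given. No per-sample column was left out.

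CPM and log2 fold changes were computed from the deposited counts with edgeR 4.0.16 (R 4.3.3, limma 3.58.1), using TMM factors and filterByExpr (count minimum 10, total minimum 15). A robust quasi-likelihood fit without covariates was made on all rows, with Benjamini-Hochberg adjustment over 15957 rows. A gene passed at an adjusted p under 0.05, and DEGs also changed more than 1.5-fold. Standard errors were derived from the F statistic. Coordinates, exon lengths and overlaps came from GENCODE release 29 (GRCh38) and promoters from RefSeq. DESeq2 1.42.0, other scalings and filters, a replicate block and leaving out each library were alternatives. A correction for GC content and exon length was chosen after seeing the data. The fit was tested on simulated data. The depth was between 31533403 and 38018349 counts in a library, with at least 381 for each of the 92 genes.

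The labels do not say what a replicate number marks. Deviations from the group means correlated at 0.171, 0.18 and 0.312 between libraries of the same number. Between different numbers the values were −0.231 to 0.0795. In a group of 3 libraries the deviations of a gene sum to 0, so these values are not independent. The pairing used in the block was read from these same counts and was not tested. The block is given beside each call and each count of calls that it changed by more than 1.5 times.

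The genes and the lists were chosen with earlier results of these data known. Genes were named by a rule: all 14 genes not called MRPL or MRPS, the 5 highest and 5 lowest fold changes and the 5 smallest p in each subunit, all DEGs, the 2 highest and 2 lowest per kilobase, the 3 smallest p of each other list, and the 2 smallest p of mitochondrial DNA. All else named, such as MRPL10, FAU and the other genes that passed, was chosen after its values were seen.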

Additional observations from a re-analysis of the deposited data

How the results depend on the processing

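The median log2 fold change of the 92 genes lay between −0.28 and −0.22 under all alternatives. RLE factors, total counts, no filter, a filter of 1 CPM in 3 libraries, Ensembl rows alone and DESeq2 gave 18 to 25 genes lower, 0 higher and 7 DEGs.

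The block by replicate number raised the counts. With the replicate block, 51 genes were lower and 1 higher, 4297 of all rows passed instead of 1462, 35 genes of the other lists instead of 18, and 12 mitochondrial DNA transcripts instead of 3. With GC and length correction, 2 DEGs, both lower, and 1 mitochondrial DNA transcript were called. Of the 13359 rows tested in that fit, 144 were DEGs as lower and 321 as higher. With the replicate block and this correction together, 53 were lower and 2 higher. In that fit 4218 rows, 40 genes of the other lists and 12 mitochondrial DNA transcripts (11 lower and 1, MT-ND1, higher) passed. DESeq2 called 2367 rows and 10 mitochondrial DNA transcripts. Among the 61 genes named by the rule, the block took 10 past the threshold and 0 below it. GC and length correction took 4 below it (MRPS26, AURKAIP1, MRM3 and MT-CO1), total counts took 3 (MRPS26, MRM3 and SSBP1), and no filter took 2 (SSBP1 and PPARGC1A) and brought ATAD3B past it. The cause was not tested.

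Without 1 library, in fits without the block, 2 to 20 genes were lower and 0 higher, 2 to 10 were DEGs, 202 to 1608 rows passed, as did 2 to 17 genes of the other lists and 0 to 3 mitochondrial DNA transcripts. The lowest counts came without non-treated replicate 1 and without 6j replicate 2. No gene named by the rule that had passed changed direction.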
